A study of Mus musculus with 6 samples.

Results

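Fatty acid oxidation and peroxisome genes, 48 in all of the 24346 genes in the deposited tables, were followed in mouse kidney with and without D-serine. The 48 genes were taken by symbol from a list that ran from fatty acid uptake to the last step of β-oxidation and to peroxisome import, and each of them was found. All kidneys came from mice with unilateral nephrectomy (UNX), the removal of 1 kidney, and were taken 2 days after the operation. The diet was free of serine for 1 week before surgery. The vehicle group (3 samples) drank water without D-serine and the D-serine group (3 samples) drank water with 0.1% D-serine, the mirror image of L-serine. The sources give no strain, sex or age, and it is not stated that the samples came from separate mice, so p-values measure only the spread between these samples. The unit is FPKM, sequenced fragments scaled to transcript length and to the total mapped in the library, which allows levels of different genes to be compared per length. Steps between the smallest FPKM values gave a rough depth, in place of read totals, of 7220000 to 8640000 mapped fragments per library.

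Fatty acids are the main fuel of the proximal tubule, the nephron segment that reabsorbs most of the filtrate. They enter the cell through carriers, are bound by small fatty acid-binding proteins and are joined to coenzyme A. Carnitine carries long chains into the mitochondrion, where repeated rounds of β-oxidation shorten them and pass electrons to the respiratory chain. Peroxisomes shorten very long, branched and bile acid side chains with their own enzymes, which are imported from the cytosol by peroxins. Many of these genes are known targets of PPARα, a nuclear receptor that pairs with RXR and is active in fasting.

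The sequences below show the promoters of the only 3 genes with a match in a search for 2 motifs. The search was made because PPARα with RXR is known to bind direct repeats of the hexamer AGGTCA spaced by 1 base. The second motif, a single extended hexamer, is not that repeat. RefSeq promoters (GRCm38.p6, the mm10 assembly, a window mostly upstream of the start of transcription) were matched by symbol for 40 of the 48 genes. Both strands were searched for the repeat (AGGNCA, any base, AGGNCA) and for the extended hexamer AAGGTCA, and no match of one lay within a match of the other in the sequences shown. Capitals mark the matches. Fabp1 (chr6:71199629-71199928, plus strand) was the only 1 of the 40 with the repeat, which 0.451% of all 27025 genes with a promoter window held. Its match read TGACCTATGGCCT, on the minus strand, from 67 bases before the start site. Slc27a2 (chr2:126552774-126553073, plus strand) and Acadm (chr3:153944594-153944893, minus strand) were the 2 of 40 with the extended hexamer, which 5.38% of all promoter windows held.
Fabp1: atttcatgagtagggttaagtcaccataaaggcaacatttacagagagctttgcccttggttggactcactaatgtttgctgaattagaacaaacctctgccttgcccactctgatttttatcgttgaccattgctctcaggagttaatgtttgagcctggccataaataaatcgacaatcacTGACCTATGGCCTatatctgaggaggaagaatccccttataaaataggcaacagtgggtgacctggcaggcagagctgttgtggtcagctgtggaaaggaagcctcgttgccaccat
Slc27a2: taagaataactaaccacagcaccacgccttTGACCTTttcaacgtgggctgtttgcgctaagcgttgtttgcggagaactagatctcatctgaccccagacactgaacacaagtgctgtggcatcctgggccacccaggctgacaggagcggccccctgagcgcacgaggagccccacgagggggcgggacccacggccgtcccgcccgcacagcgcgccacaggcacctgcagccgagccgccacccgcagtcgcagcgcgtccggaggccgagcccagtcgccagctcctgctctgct
Acadm: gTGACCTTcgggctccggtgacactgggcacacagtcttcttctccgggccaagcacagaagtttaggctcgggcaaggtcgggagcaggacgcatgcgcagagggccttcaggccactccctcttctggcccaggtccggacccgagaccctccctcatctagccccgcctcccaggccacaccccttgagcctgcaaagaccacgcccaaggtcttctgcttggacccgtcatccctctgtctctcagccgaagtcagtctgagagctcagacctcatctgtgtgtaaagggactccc
A match describes letters in this window and says nothing of binding.

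Most of the 48 genes were lower with D-serine, and none passed the test over all genes. The D-serine mean was below the vehicle mean on the log scale for 37 of 48 genes, against 51.1% of all 11737 genes tested. The median log2 difference was -0.30, equal to 81.4% of the vehicle level, against -0.0078 over all genes tested. In 27 genes all 3 D-serine libraries lay below all 3 vehicle libraries, where 19.4% of all tested genes did so, and in 2 genes they lay above, where 16.5% did. These shares are also the background for the counts by role below. At an unadjusted p under 0.05 in limma, 26 genes were lower (14.6% of all tested genes) and 3 higher (13.1%). At an adjusted p under 0.05, 0 of the 48 genes were called in limma, where 0.0682% of all tested genes were called lower and 0.00852% higher. The lowest adjusted p was 0.058. This count depended on the setting: 5 genes, all lower, were called when small RNA genes were left out of the test (Acad9, Acox3, Acsl3, Cd36 and Slc27a2). In that fit 333 of all 11635 tested genes were called. Without D-serine replicate 3, which lay nearest to the vehicle libraries, 11 genes were called, all lower, and the median log2 difference was -0.45. Calls over all 11737 tested genes rose as well in that fit, from 9 to 437.

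**Figure D1:**
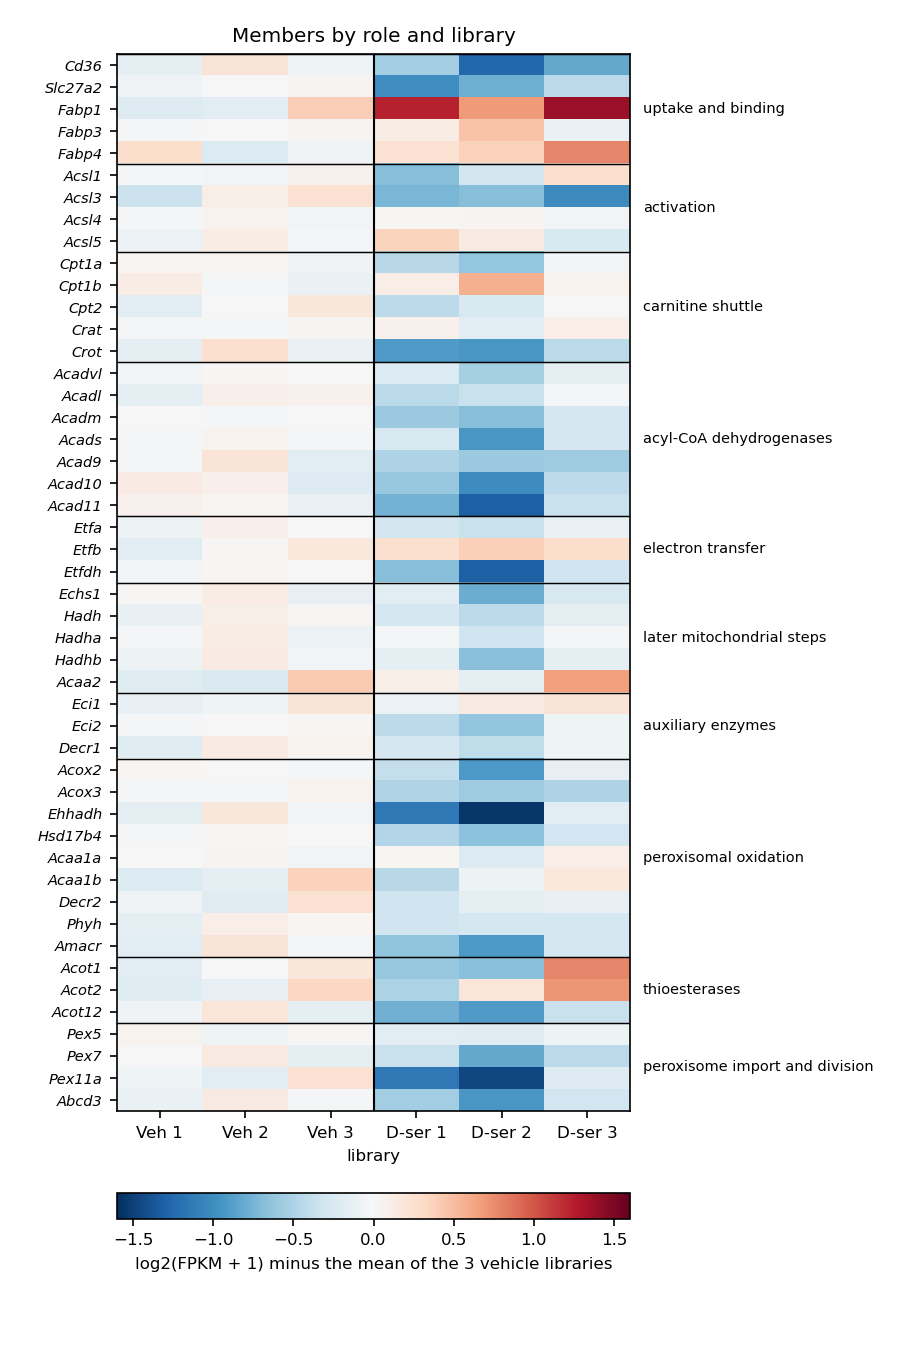
Each row is 1 gene and each column 1 library, and colour gives log2(FPKM + 1) minus the mean of the 3 vehicle libraries, with rows grouped by role. Blue fills most rows under the D-serine libraries, most deeply in replicate 2 and least in replicate 3, with Fabp1 as the deepest red row.

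The levels behind these counts were high. The median gene of the 48 stood at 108 FPKM over the 6 libraries, against 10.7 FPKM over all tested genes, and 28 of the 48 had a vehicle mean at or above 100 FPKM. Summed, the 48 genes held 1.33 to 1.37% of the FPKM of a vehicle library and 0.928 to 1.20% of a D-serine library, so the groups did not overlap. A large part of each sum was 1 gene, Slc27a2. It held 2450 to 2620 FPKM of sums of 10050 to 11070 FPKM in vehicle libraries. With D-serine it held 1272 to 1890 FPKM of sums of 7696 to 9459 FPKM.

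Among the genes of uptake and binding, the 2 membrane carriers were lower and the binding proteins were not. Slc27a2 (chr2:126552407-126588243) encodes FATP2, which takes up fatty acids at the apical side of the proximal tubule and activates very long chains. It was the most abundant of the 48 genes, at 2450, 2562 and 2620 FPKM in vehicle libraries, against 1272, 1485 and 1890 FPKM in D-serine libraries. Every D-serine library was below every vehicle library, and the D-serine mean was 60.9% of the vehicle mean (log2 difference -0.73 ± 0.15 SE, limma adjusted p = 0.066). Cd36 (chr5:17781690-17888801), which encodes a scavenger receptor that also takes up fatty acids, was at 245, 312 and 258 FPKM in vehicle libraries, against 183, 113 and 152 FPKM in D-serine libraries. Its groups did not overlap either, and its mean was 54.9% of vehicle (log2 difference -0.88 ± 0.19, limma adjusted p = 0.069).

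Fabp1 (chr6:71199827-71205023), the liver form of the binding proteins, went the other way. It was at 0.746, 0.782 and 1.65 FPKM in vehicle libraries, against 3.76, 2.23 and 4.23 FPKM in D-serine libraries, so that all D-serine libraries lay above. Its log2 difference of 1.09 ± 0.24 was the largest of the 48 in size (limma adjusted p = 0.071), at the lowest level, since the lowest library rests on roughly 3 fragments. Fabp3, the heart form, was at 120, 123 and 127 FPKM in vehicle libraries, against 133, 170 and 114 FPKM in D-serine libraries, with overlapping groups (log2 difference 0.16 ± 0.15). That sign turned to -0.040 once the dependence on transcript length and GC was taken out. Fabp4 (16.4, 11.3 and 12.7 FPKM in vehicle libraries, 15.9, 17.5 and 23.6 FPKM with D-serine) is the form of fat cells, capillary endothelium and macrophages. Its groups overlapped by 1 library (log2 difference 0.46 ± 0.18, limma adjusted p = 0.15). Of 6 fat cell markers, Plin1, Cfd and Lep were listed at 0 in all 6 libraries, and the 6 summed to at most 0.126 FPKM in vehicle libraries, against 0.317 FPKM in D-serine libraries. The 8 endothelial markers summed to 25.0 to 47.1 FPKM in vehicle libraries, against 39.4 to 59.0 FPKM in D-serine libraries, and 5 of 7 tested were higher. The 6 macrophage markers summed to 10.5 to 17.8 and 11.8 to 21.0 FPKM, and 4 of 5 tested were higher. The part of both cell types in the level of Fabp4 was not tested.

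**Figure D2:**
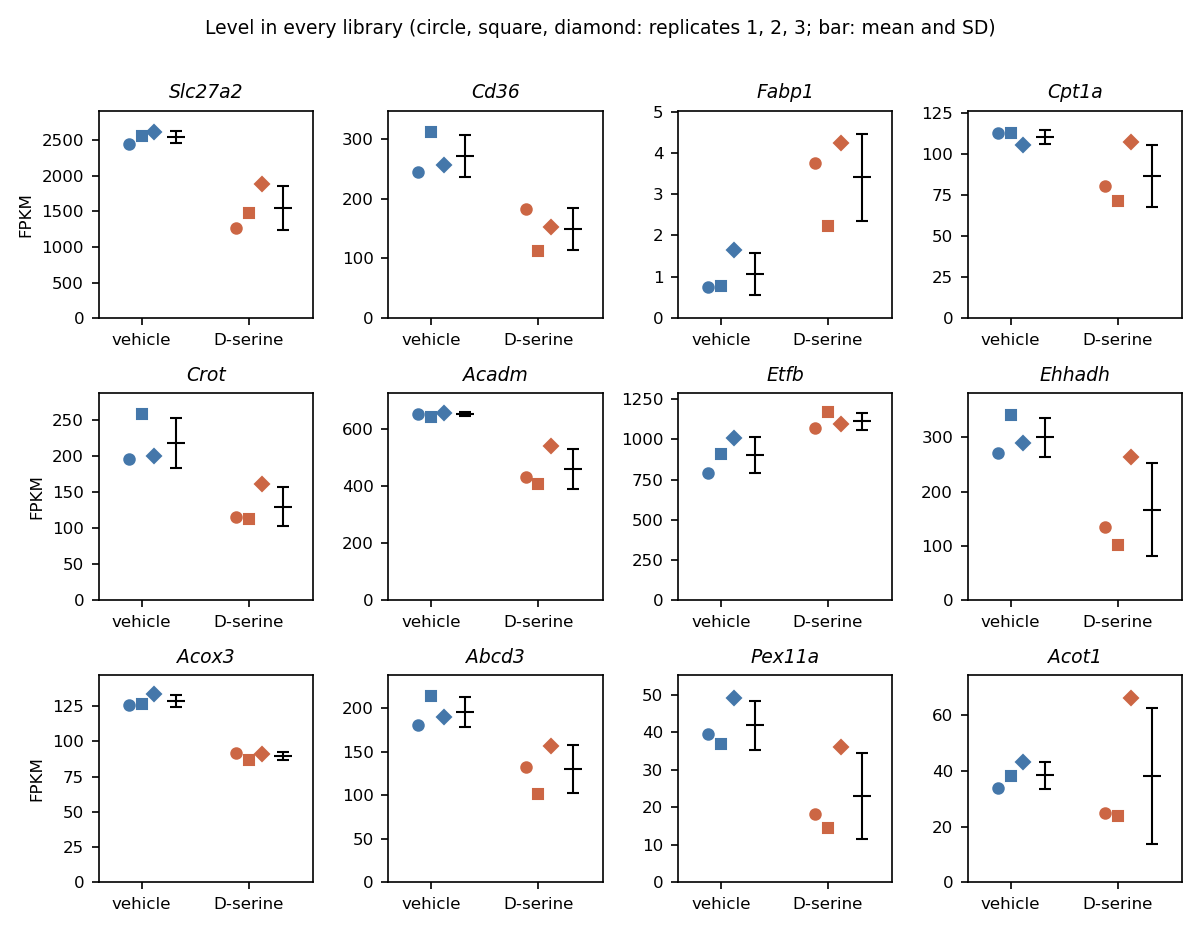
FPKM of 12 genes in each library, with the group mean and SD beside the points and each axis starting at 0. Groups stand apart for Slc27a2, Cd36, Crot, Acadm, Ehhadh, Acox3, Abcd3 and Pex11a (D-serine lower) and for Fabp1 and Etfb (D-serine higher), and they overlap for Cpt1a and Acot1.

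Long-chain acyl-CoA synthetases, which activate fatty acids, split by isoform. Acsl3, the form of the endoplasmic reticulum and lipid droplets, was at 10.97, 15.2 and 17.0 FPKM in vehicle libraries, against 8.12, 8.43 and 6.52 FPKM in D-serine libraries. The groups did not overlap, and the D-serine mean was 53.4% of vehicle (log2 difference -0.81 ± 0.17, limma adjusted p = 0.068). Acsl1, the form of outer mitochondrial membrane and endoplasmic reticulum, ran from 46.6 to 50.8 FPKM in vehicle libraries, against 29.8 to 58.3 FPKM in D-serine libraries, a wide range that spanned the vehicle group. Acsl4, which prefers arachidonic acid, and Acsl5 had overlapping groups and log2 differences of 0.0072 and 0.083.

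The carnitine shuttle moves acyl groups across the mitochondrial membranes. Cpt1a (chr19:3322334-3385733), the rate-limiting transferase of this step in liver and kidney, was at 112, 113 and 106 FPKM in vehicle libraries, against 80.5, 71.3 and 107 FPKM in D-serine libraries. D-serine replicates 1 and 2 were below the vehicle libraries and replicate 3 lay among them, which left a log2 difference of -0.37 ± 0.15 (limma adjusted p = 0.17). Cpt1b, the muscle form, was at 12.5, 11.2 and 10.5 FPKM in vehicle libraries, against 12.4, 17.3 and 11.9 FPKM in D-serine libraries. The groups overlapped (log2 difference 0.25 ± 0.15), and 2744 of its exon bases also belong to a read-through gene on the same strand, Gm44502, so its level is uncertain. The 5 muscle markers summed to at most 1.03 FPKM in any library, and Myh4 and Tnnt3 were listed at 0 throughout. Cpt2, the transferase of the inner membrane, was at 102, 114 and 131 FPKM in vehicle libraries, against 85.5, 97.1 and 115 FPKM in D-serine libraries, again with overlap (log2 difference -0.22 ± 0.14). Crot, the peroxisomal octanoyltransferase that exports shortened chains, differed more, at 196, 258 and 201 FPKM in vehicle libraries, against 115, 113 and 161 FPKM in D-serine libraries. Here the groups did not overlap (59.4% of vehicle, log2 difference -0.75 ± 0.17, limma adjusted p = 0.074). Crat, which handles short chains, stood at 46.5 ± 1.22 and 46.7 ± 5.10 FPKM (SD, n = 3 each), a log2 difference of 0.0008 with an SE of 0.11.

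The acyl-CoA dehydrogenases, which open each round of β-oxidation, were lower in 7 of 7 genes, with 6 of 7 groups not overlapping and a median log2 difference of -0.51. Acadm (chr3:153922357-153944632), the medium-chain enzyme, was at 655, 645 and 658 FPKM in vehicle libraries, against 433, 407 and 542 FPKM in D-serine libraries. The vehicle libraries lay within 13.4 FPKM of each other, and each D-serine library was more than 100 FPKM below them (log2 difference -0.51 ± 0.12, limma adjusted p = 0.077). Acads, the short-chain enzyme, was at 169, 180 and 171 FPKM against 145, 90.7 and 144 FPKM, with replicate 2 as the lowest. Acadvl, the very long-chain enzyme, was at 222, 235 and 230 FPKM against 196, 158 and 207 FPKM (log2 difference -0.30 ± 0.12, limma adjusted p = 0.16), although 1151 of its exon bases are shared with Dvl2 on the opposite strand. Acadl, the long-chain enzyme, was the 1 of 7 with overlap.

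Acad9, Acad10 and Acad11 are less well-known relatives, and Acad9 is also an assembly factor of respiratory complex I. Acad9 was at 38.6, 45.6 and 35.1 FPKM in vehicle libraries, against 27.9, 25.9 and 26.3 FPKM in D-serine libraries. It was among the most even within D-serine, with no overlap (log2 difference -0.55 ± 0.12, limma adjusted p = 0.067). Acad10 was at 35.2, 33.9 and 27.5 FPKM against 20.7, 15.5 and 23.7 FPKM (62.0% of vehicle). Acad11 was at 92.3, 90.0 and 81.4 FPKM against 51.7, 35.0 and 68.1 FPKM (58.7% of vehicle), and replicate 2 was again the lowest D-serine library.

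Electrons from the dehydrogenases pass through the flavoprotein ETF, a dimer of Etfa and Etfb, to the membrane oxidoreductase Etfdh, and these 3 genes did not go one way. Etfdh was at 103, 108 and 107 FPKM in vehicle libraries, against 65.7, 42.3 and 84.8 FPKM in D-serine libraries. No library overlapped (60.5% of vehicle, log2 difference -0.77 ± 0.23, limma adjusted p = 0.100), and 278 of its exon bases are shared with 4930579G24Rik on the opposite strand. Etfa was lower as well, with a mean of 84.1% of vehicle and no overlap. Etfb, which is named because of its values, held 790, 910 and 1009 FPKM in vehicle libraries, against 1071, 1173 and 1096 FPKM in D-serine libraries. It was the other gene besides Fabp1 with all D-serine libraries above vehicle (log2 difference 0.31 ± 0.11, limma adjusted p = 0.14). The difference was only 0.078 with the dependence on transcript length and GC taken out. Of its 1164 exon bases, 617 also belong to Gm45233 on the same strand, so its level is uncertain.

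Among the 5 genes of the later mitochondrial steps, 4 were lower, 3 of them without overlap, and the median log2 difference was -0.29. The trifunctional protein catalyses the remaining steps for long chains, and its subunit genes Hadha and Hadhb (chr5:30118304-30155162 and chr5:30155248-30184593) lie head to head with 85 bases between them. Hadha was at 69.4, 76.1 and 65.5 FPKM in vehicle libraries, against 68.6, 55.9 and 69.4 FPKM in D-serine libraries, with overlap (log2 difference -0.12 ± 0.12). Hadhb had no overlap but a wide D-serine group (164 ± 13.4 and 132 ± 25.5 FPKM, SD, n = 3 each, log2 difference -0.33 ± 0.16). Hadh and Echs1, the short-chain dehydrogenase and hydratase, were at 81.9% and 76.4% of vehicle without overlap, while the thiolase gene Acaa2 overlapped (log2 difference 0.20 ± 0.25). Among the auxiliary enzymes for unsaturated chains, Eci2 was at 77.9% of vehicle without overlap, and Decr1 and Eci1 overlapped (log2 differences -0.25 and 0.086).

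**Figure D3:**
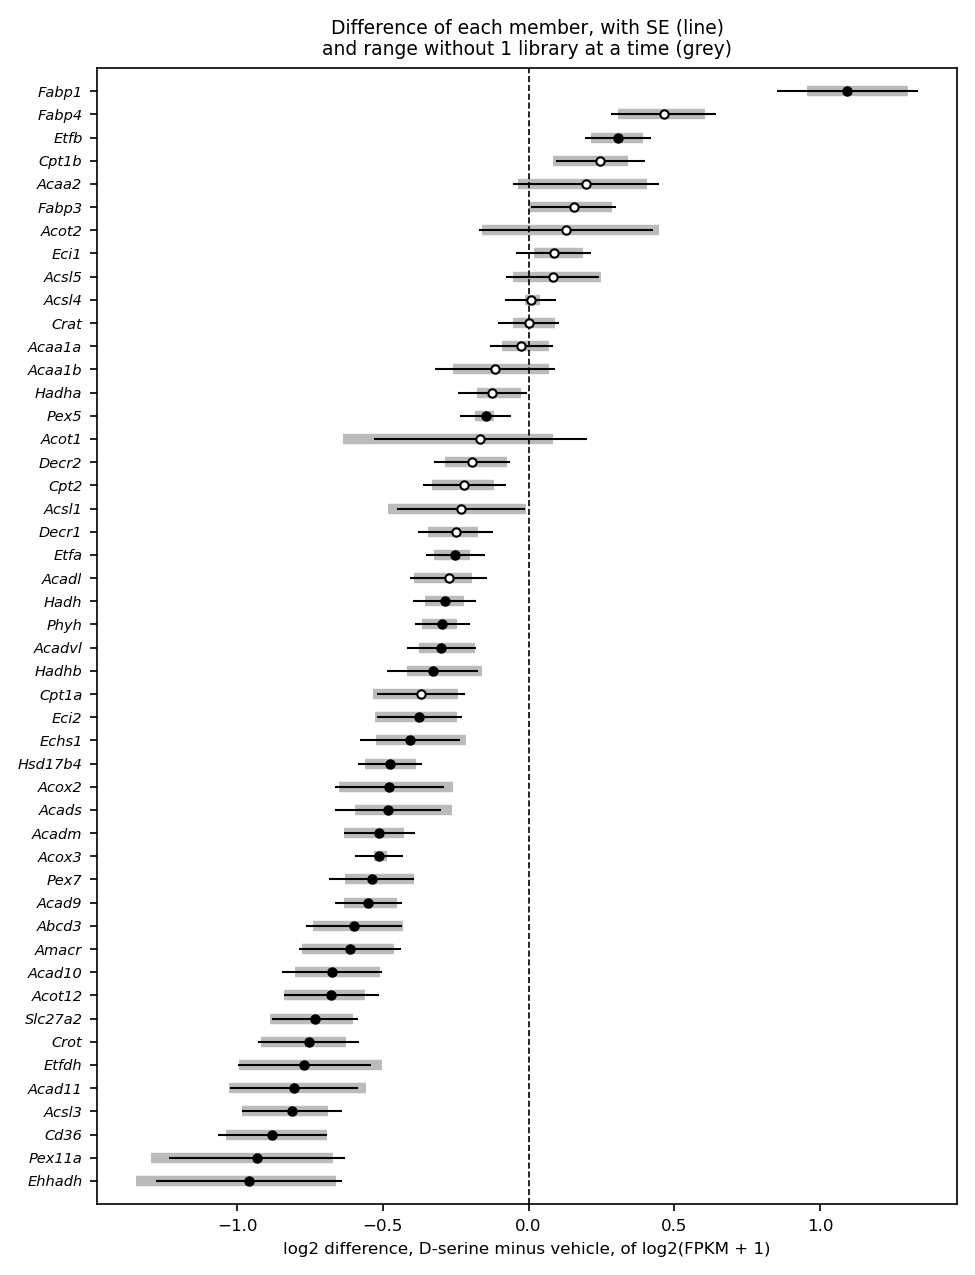
The log2 difference of each of the 48 genes, D-serine minus vehicle, with its SE as a line and the range over 6 fits without 1 library as a grey bar. Filled points are the 29 genes whose groups do not overlap, of which 27 lie left of 0 and 2 right of it.

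Peroxisomal oxidation was lower in 9 of 9 genes, with 6 of 9 groups not overlapping and a median log2 difference of -0.47. The log2 difference of Acaa1a was only -0.025, and Acaa1a and Acaa1b changed sign in some alternative fits. Ehhadh (chr16:21761287-21787807), the bifunctional enzyme of straight chains, was at 271, 340 and 289 FPKM in vehicle libraries, against 135, 101 and 263 FPKM in D-serine libraries. Replicate 3 came within 8.2 FPKM of the lowest vehicle library, and the log2 difference of -0.96 ± 0.32 ran from -1.35 without that replicate to -0.66 without replicate 2 (limma adjusted p = 0.12). Acox3 (chr5:35583040-35615352), an oxidase of branched chains, was far more even, at 126, 127 and 134 FPKM against 91.7, 86.7 and 91.4 FPKM. It had the lowest adjusted p of the 48 genes (log2 difference -0.51 ± 0.084, limma adjusted p = 0.058). In 18 alternative fits its difference stayed between -0.53 and -0.47 and its limma adjusted p between 0.037 and 0.23, and it was called in 6. Of its exon bases 700 are shared with the antisense gene 4931431C16Rik.

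The other enzymes of branched chains and bile acids followed. Acox2, the oxidase of bile acid precursors, was at 43.2, 42.6 and 41.4 FPKM against 32.2, 22.0 and 38.6 FPKM. Hsd17b4, the bifunctional enzyme of branched chains, was at 130, 135 and 133 FPKM against 95.3, 83.9 and 107 FPKM (log2 difference -0.47 ± 0.11, limma adjusted p = 0.074). Amacr, the racemase that readies branched chains, was at 215, 279 and 236 FPKM against 155, 128 and 198 FPKM. In all 3 genes replicate 2 was lowest and replicate 3 highest within D-serine, and no library overlapped. Decr2, an auxiliary reductase, overlapped with vehicle. Phyh, which starts α-oxidation of phytanic acid, was at 869 ± 73.3 and 706 ± 10.4 FPKM (SD, n = 3 each), also without overlap.

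The peroxisomal thiolases did not differ beyond their spread. Acaa1a was at 63.5, 65.7 and 61.3 FPKM in vehicle libraries, against 65.0, 54.5 and 68.3 FPKM in D-serine libraries, and Acaa1b at 267, 282 and 404 FPKM and 230, 296 and 352 FPKM. Their log2 differences were -0.025 ± 0.11 and -0.11 ± 0.21. The pair lies on chromosome 9 and is nearly identical, so reads could be split between the copies and both values are uncertain.

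Acyl-CoA thioesterases release free fatty acids from coenzyme A. Acot12, which hydrolyses acetyl-CoA in the cytosol, was at 109, 130 and 103 FPKM in vehicle libraries, against 65.9, 60.0 and 88.5 FPKM in D-serine libraries, without overlap (62.8% of vehicle, log2 difference -0.68 ± 0.16, limma adjusted p = 0.079). Acot1, the cytosolic long-chain form, was at 33.6, 38.1 and 43.2 FPKM in vehicle libraries, against 24.7, 23.6 and 66.1 FPKM in D-serine libraries. Replicates 1 and 2 lay below and replicate 3 above every vehicle library, and the log2 difference of -0.17 ± 0.37 was -0.64 without replicate 3 but 0.085 without replicate 2 and 0.054 without replicate 1. Acot2, the mitochondrial form 15616 bases upstream on chromosome 12, was at 10.96, 11.5 and 16.2 FPKM against 8.64, 14.6 and 21.3 FPKM, with overlap. The log2 difference of Acot2 was 0.13 ± 0.30, and -0.16 without D-serine replicate 3. These 2 genes are close copies, so reads could be split between them as well.

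Genes of peroxisome import and division were lower in 4 of 4, and in each the groups did not overlap. Pex11a (chr7:79735957-79743131), which promotes peroxisome division and is a known PPARα target, was at 39.5, 36.7 and 49.2 FPKM in vehicle libraries, against 18.2, 14.5 and 36.0 FPKM in D-serine libraries. Replicate 3 was within 0.8 FPKM of the lowest vehicle library, and the log2 difference of -0.93 ± 0.30 ran from -1.30 to -0.67 over the fits without 1 library (limma adjusted p = 0.11). Abcd3, the membrane transporter that brings acyl-CoA into the peroxisome, was at 181, 214 and 190 FPKM against 132, 102 and 156 FPKM (66.7% of vehicle). Pex7, the receptor for the rarer import signal used by Phyh and Acaa1a among others, was at 47.2, 52.3 and 42.9 FPKM against 36.8, 26.3 and 34.7 FPKM (68.7% of vehicle). Pex5, the receptor for the common import signal, differed least, at 33.7 ± 1.58 and 30.3 ± 1.38 FPKM (SD, n = 3 each, log2 difference -0.15 ± 0.088, limma adjusted p = 0.31).

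The D-serine libraries differed among themselves in a shared order. Replicate 2 was the lowest D-serine library for 32 of the 48 genes, and replicate 3 was the highest for 35. The median over the 48 genes of log2(FPKM + 1) minus the vehicle mean was -0.40, -0.55 and -0.14 in D-serine replicates 1 to 3, and between -0.051 and 0.035 in the vehicle libraries. The SD of the log values was larger with D-serine for 38 of 48 genes (79.2%), against 65.6% of all tested genes.

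Replicate 3 was also the highest D-serine library for many genes outside the 48, among them Acsm2, Cat, Scp2 and Ppara. Over the tested other genes of these pathways, given below, the same median was -0.26, -0.38 and -0.099 in D-serine replicates 1 to 3. The genes that follow here were picked for this order after their values were seen, so they describe that library and no group of genes. Pdk4, which slows glucose oxidation, was at 12.6, 33.1 and 24.9 FPKM in vehicle libraries, against 12.6, 9.17 and 72.0 FPKM in D-serine libraries. Angptl4, an inhibitor of lipoprotein lipase, was at 77.9, 71.8 and 112 FPKM and 40.3, 40.9 and 124 FPKM. In both genes and in Acot1, replicate 3 was the highest of all 6 libraries, and the groups overlapped. Some other metabolic genes did not share this order. Pck1, the key enzyme of gluconeogenesis, was at 2730, 4449 and 2876 FPKM in the D-serine libraries, highest in replicate 2, and Ppargc1a was at 13.1, 13.1 and 11.4 FPKM, lowest in replicate 3.

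**Figure D4:**
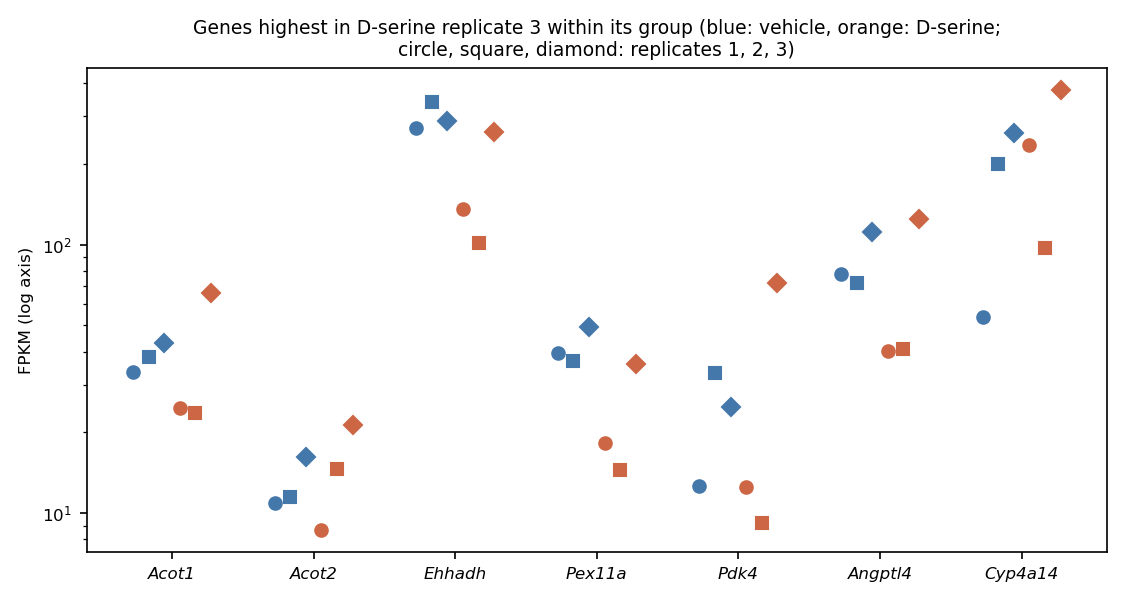
FPKM on a log axis, in each library, of 7 genes picked because replicate 3 was the highest D-serine library, with vehicle in blue, D-serine in orange and a marker shape for each replicate. That replicate lies above all vehicle libraries for Acot1, Acot2, Pdk4, Angptl4 and Cyp4a14 and below them for Ehhadh and Pex11a.

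Other genes of the same pathways, 70 by a separate list, mostly had the same direction as the 48. That list was chosen with earlier results of these data known and was measured in the same libraries, so it is no independent check. Of the 70 genes, 65 passed the filter on low values and Cpt1c, Acot5, Acsl6, Abcd2 and Pparg did not. Of the 65, 52 were lower and 13 higher, with a median log2 difference of -0.26. Wholly below vehicle lay 24 and wholly above 3, against 19.4% and 16.5% of all tested genes. Limma called 0 of them at an adjusted p under 0.05, against 0.0682% of all tested genes lower and 0.00852% higher. At an unadjusted p under 0.05 in limma, 25 were lower and 3 higher, against 14.6% and 13.1% of all tested genes. Bdh1, an enzyme of ketone bodies, was at 59.4, 67.8 and 53.4 FPKM against 38.4, 35.9 and 38.2 FPKM (limma adjusted p = 0.058). Acsm2, a medium-chain synthetase, was at 58.7% of vehicle, and Nudt19, a coenzyme A hydrolase of kidney peroxisomes, at 56.6%. Far1 and Agps, which make ether lipids in the peroxisome, were at 63.3% and 57.2%. None of these 4 overlapped with vehicle (limma adjusted p from 0.059 to 0.071). Cat, the peroxisomal catalase, was at 647, 671 and 728 FPKM against 494, 512 and 597 FPKM (log2 difference -0.36 ± 0.11, limma adjusted p = 0.10). Slc25a20, the carrier that exchanges acylcarnitine for carnitine, had overlapping groups (53.9 ± 5.76 and 50.2 ± 12.4 FPKM, SD, n = 3 each), and its log2 difference of -0.12 was 0.012 without D-serine replicate 1.

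Of the regulators, the messenger RNA of Ppara itself was at 24.5, 16.1 and 18.9 FPKM in vehicle libraries, against 11.1, 10.6 and 12.9 FPKM in D-serine libraries. The groups did not overlap, and the mean was 58.2% of vehicle (log2 difference -0.72 ± 0.16, limma adjusted p = 0.071). Ppargc1a, the coactivator of mitochondrial genes, stood at 11.9 ± 0.578 and 12.5 ± 0.981 FPKM (SD, n = 3 each), with overlap. Slc27a1, Acot13 and the orphan receptor gene Esrra were the 3 with all D-serine libraries above vehicle, and are named here after their values were seen. Esrra was at 72.4, 70.4 and 79.0 FPKM in vehicle libraries, against 91.8, 84.3 and 87.1 FPKM in D-serine libraries.

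Markers of nephron segments moved beside these genes. In bulk tissue, fewer cells of a type and less RNA per cell cannot be told apart. Of 11 markers of the S3 segment, the last part of the proximal tubule, 10 were tested and 10 were lower, Slc5a1 by only 0.021 (log2 difference -0.021). In 6 of them the groups did not overlap, where 19.4% of all tested genes lay wholly below vehicle. The 11 summed to 4507 to 5294 FPKM in vehicle libraries, against 3179 to 3629 FPKM in D-serine libraries. Most of each sum was 1 gene, Acy3 (3301, 3936 and 4316 FPKM in vehicle libraries, 2700, 2770 and 2929 FPKM with D-serine). Of 15 markers of the S1 and S2 segments 10 were lower and 5 higher, and their sums overlapped, at 11510 to 13400 and 10850 to 12350 FPKM. Of 6 markers of the thick ascending limb 4 were lower, with overlapping sums. Markers of principal cells (7 of 7 higher, 457 to 614 and 676 to 1015 FPKM), of intercalated cells (6 of 6 higher, 154 to 182 and 189 to 249 FPKM) and of the distal convoluted tubule (4 of 4 higher, 563 to 734 and 746 to 874 FPKM) had higher sums with no overlap. Of the podocyte markers 4 of 4 were higher, with overlapping sums (7.74 to 43.0 and 24.4 to 28.2 FPKM). No list held a marker at 0 in all libraries apart from those of fat and muscle. By the median over each list, D-serine replicate 3 was nearest to the vehicle mean for the S3, principal, intercalated and podocyte lists, as for the 48 genes. It was not nearest for the S1 and S2, thick ascending limb, distal convoluted tubule, endothelial and macrophage lists. Among D-serine libraries it was farthest for the thick ascending limb (-0.45), endothelial (0.65) and macrophage (0.66) lists. The part of these cell types in the levels of the 48 genes was not tested.

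**Figure D5:**
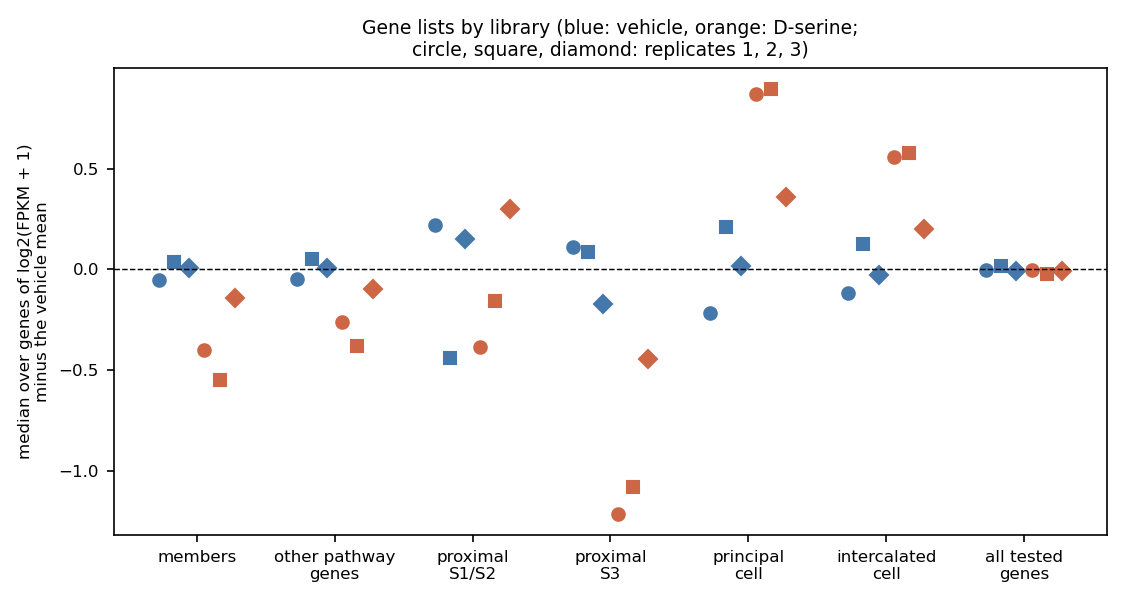
Median over the genes of each list of log2(FPKM + 1) minus the vehicle mean, 1 point per library, with vehicle in blue, D-serine in orange and a marker shape for each replicate. The D-serine points of the 48 genes (members) and of the S3 list lie below vehicle with replicate 3 nearest to 0, those of the principal and intercalated lists above, and those of the S1 and S2 list spread as widely as the vehicle points, with replicate 3 above them at 0.298.

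Features outside the choice of genes were loosely related to the differences. Across the 48 genes, the Spearman correlation of the log2 difference was 0.40 with GC content, -0.26 with length of the longest annotated transcript and -0.21 with the mean level. These values describe genes measured in the same 6 libraries, which are not independent replicates. With a trend on length and GC content removed from each library, 40 of 48 genes were lower and the median log2 difference was -0.32. In the annotation, 20 of the 48 genes share exon bases with another gene, and the sources do not say whether strand was used in assigning reads.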

How the data were processed

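RNA was isolated with TRIzol and the libraries were TruSeq stranded mRNA, per the labels' protocols, for 3 vehicle and 3 D-serine kidneys. TopHat2 2.0.13, Bowtie2 2.2.3, SAMtools 0.1.19, Cufflinks 2.2.1 and mm10 are named in the submitters' processing notes. FPKM values, in a table for each sample, are what the authors deposited. FPKM depends on the library total, so abundant genes shift the rest, and on transcript models. Annotation and strand setting: not given in the sources used here.

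Limma 3.58.1 in R 4.3.3 (lmFit, eBayes with a mean-variance trend) was fitted to log2(FPKM + 1) of the 11737 genes whose mean reached 1 FPKM, two-sided, with Benjamini-Hochberg adjustment over all of them and a threshold of 0.05. All 48 genes passed this filter. Log2 differences are on that scale, which understates the change of low genes. An exact permutation test of 3 against 3 cannot go below p = 0.1 and was not used. Fit and calls were tested on simulated data. Depth was estimated from the spacing of low values and from annotated transcript lengths, is rough, and gave no intervals. Positions came from GENCODE M21 (mm10), with all 48 symbols matched.

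Per-library values were given for genes whose groups did not overlap, up to 20 by size of the difference, and for a fixed list of key genes; of the other pathway genes, for the 6 with the smallest p and 6 fixed ones, of which some results are not reported here. The genes, lists and motifs were chosen with earlier results of these data known. Alternatives were the pseudocount (0.1 or 0.01), the minimum (none or 5 FPKM), scaling (median of ratios, quantile, same sum), no trend, weighted libraries, small RNA genes left out, the replicate number as a block, a loess trend on length and GC content removed (span 0.5), and each library left out in turn.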

Additional observations from a re-analysis of the deposited data

How the results depend on the processing

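The median log2 difference of the 48 genes stayed below 0 in all 18 alternatives, and ran from -0.45 to -0.22 over the fits without 1 library, the former without D-serine replicate 3. The count of 0 called genes among the 48 was 1 with a pseudocount of 0.1 or 0.01 or a minimum of 5 FPKM (Acox3), 3 with weighted libraries (Acox3, Slc27a2 and Fabp1), 5 with small RNA genes left out, and 0 to 11 without 1 library. The count over all genes was 9, and 171 and 221 with a pseudocount of 0.1 and 0.01, 132 with a minimum of 5 FPKM, 15 with median-of-ratios scaling, 269 with weighted libraries, 333 with small RNA genes left out, and 2 to 437 without 1 library. The number of called genes is therefore far less stable than the direction, for a reason that was not tested.

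Direction was kept by 38 of the 48 genes in every alternative that gave them a value (17 for Fabp1, 18 for the others). The other 10, and Slc25a20 outside the 48, changed sign in at least 1, and the cause was not tested. Acaa1a was 0.048 with quantile normalization and 0.019 with weighted libraries. With libraries scaled to the same sum, Acsl4 was -0.0014 and Crat -0.0085. With the length and GC trend removed, Fabp3 was -0.040, Crat -0.0078 and Eci1 -0.093. Without 1 library, the log2 difference ran from -0.013 to 0.038 for Acsl4, -0.054 to 0.092 for Crat, -0.054 to 0.25 for Acsl5, -0.090 to 0.070 for Acaa1a, -0.26 to 0.071 for Acaa1b, -0.64 to 0.085 for Acot1, -0.16 to 0.45 for Acot2, -0.036 to 0.41 for Acaa2 and -0.31 to 0.012 for Slc25a20.

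Samples with the same replicate number did not deviate together (correlations of -0.070, 0.0031 and 0.067 for replicates 1 to 3), so the number was not taken as a pairing. With the replicate block, 2 genes of all tested and 0 of the 48 were called. The depth limits Fabp1 most, at about 3 fragments in its lowest library.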

Other observations

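Some peroxisome and acyl-CoA genes outside the 48 stood apart from vehicle as well, and are named after their values were seen. Acsm3, a medium-chain acyl-CoA synthetase, was at 259, 404 and 249 FPKM in vehicle libraries, against 92.8, 42.1 and 138 FPKM in D-serine libraries (29.9% of vehicle, limma adjusted p = 0.071). Scp2, the thiolase and sterol carrier of peroxisomes, was at 427, 453 and 446 FPKM in vehicle libraries, against 324, 257 and 383 FPKM in D-serine libraries. Slc27a1, a fatty acid carrier of the same family as Slc27a2, was higher with D-serine, at 36.3, 45.9 and 44.7 FPKM against 26.2, 27.9 and 32.2 FPKM (limma adjusted p = 0.077). None of these passed the adjusted threshold of 0.05 in limma. The Rxra gene, whose product pairs with PPARα, was at 28.6, 26.5 and 24.3 FPKM in vehicle libraries, against 21.4, 15.2 and 22.6 FPKM in D-serine libraries, without overlap.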
